A study of Mus musculus with 18 samples.

Results

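Clonidine and guanabenz were compared in tumours grown in mice without the α2A-adrenergic receptor, the receptor that both drugs are best known to activate. The comparison used 6 of the 18 tumour RNA-seq libraries of the study, chosen by their titles alone: 3 from clonidine-treated Adra2a-/- hosts (KO-Clonidine) and 3 titled as guanabenz-treated Adra2a-/- hosts (KO-Guanabenz). The titles and the treatment entries disagree for KO-Guanabenz: its 3 libraries carry the entry Untreated, the same entry as the PBS-treated Adra2a-/- hosts (KO-Control, 3 libraries). The protocol text names guanabenz among the agents, and the libraries are called KO-Guanabenz here by title, so every difference below is one between libraries with these titles. All hosts were 10 weeks old and carried implanted MC38-OVA cells, which are colon carcinoma cells of the mouse engineered to express ovalbumin as a model antigen. Clonidine, guanabenz or PBS was injected into the peritoneum once a day, and tumours were taken at 7 days. The other 9 libraries are the same 3 treatments in wild-type (WT) hosts. The labels give no dose, so a difference between the drugs cannot be told apart from a difference in effective dose, and they do not say which part of Adra2a was deleted or whether each library is a separate animal. The p-values below therefore measure the spread between libraries, which may be partly technical.

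A dichlorophenyl ring is common to the 2 drugs. In clonidine it is joined to a cyclic imidazoline, and in guanabenz it is joined through a hydrazone to an open guanidine. Both lower blood pressure by activating α2-adrenergic receptors, which couple to inhibitory G proteins and reduce cyclic AMP. Clonidine also binds imidazoline sites, and guanabenz is also known for an action on the stress-induced subunit of the phosphatase that reverses phosphorylation of the translation factor eIF2α. In the hosts compared here the main shared receptor is missing from host cells, while the implanted tumour cells keep their own genome.

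The 6 libraries held between 62206057 and 147641725 estimated counts. Adra2a transcripts were scarce throughout: 0.183, 0.293 and 0.234 counts-per-million (CPM) in KO-Clonidine 1, 2 and 3, 0.0917, 0.139 and 0.171 CPM in KO-Guanabenz, and 0.106, 0.231 and 0.199 CPM in KO-Control. The WT libraries lay between 0.286 and 0.589 CPM, and 1 KO-Clonidine library reached into the lowest WT value. The deleted part is not given and the implanted cells were not deleted, so these counts do not by themselves check the genotype. Macrophage and fibroblast markers were abundant in the 6 libraries (Csf1r, the receptor for colony-stimulating factor 1, at 484 to 630 CPM), whereas the epithelial markers that could stand for carcinoma cells were scarce in the 9 Adra2a-/- libraries, with Epcam at most 1.38 CPM, Krt8 at most 0.450 CPM and Krt18 at most 0.534 CPM. Y-linked transcripts (mean of Ddx3y, Eif2s3y and Uty) were at 13.8 and 15.8 CPM in KO-Guanabenz 1 and 2, at 0.175 CPM in KO-Guanabenz 3 and at 0.133 to 0.151 CPM in KO-Clonidine. Their presence thus differed between the drug groups and cannot be fully told apart from the drug. In WT hosts they were at 7.84, 8.6 and 0.19 CPM with clonidine and 6.09, 5.99 and 0.238 CPM with guanabenz. The imbalance therefore also enters the comparison of Adra2a-/- with WT hosts below. KO-Guanabenz 3 also stood nearer to the clonidine and PBS libraries than to its own group. Its root-mean-square log2 distance was 0.43 to 0.49 to KO-Clonidine and 0.43 to 0.5 to KO-Control. The other libraries of its own group were 0.51 and 0.61 away.

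Across 16125 genes tested with edgeR's quasi-likelihood test, none passed an adjusted p of 0.05: 0% were called higher with clonidine and 0% lower. The smallest adjusted p was 0.057. At an unadjusted p under 0.05, 1447 genes (8.97%) were higher with clonidine and 1034 (6.41%) lower, 2481 in all where about 806 would arise by chance. The 2 sets of libraries did not overlap for 1860 genes (11.5%) that were higher with clonidine and 1394 (8.64%) that were lower. At the looser adjusted p under 0.10, a threshold added after the data were seen, 264 genes (1.64%) were higher and 67 (0.416%) lower. Most differences were small, with 5% of genes below -0.45 and 5% above 0.43 on the log2 scale and a median of 0.001.

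The count of calls depended on the tool and on 1 library. DESeq2 called 412 genes higher (3.2%) and 175 lower (1.36%), and limma voom with library quality weights called 388 higher (2.41%) and 113 lower (0.701%). Of these calls, 441 were shared, which is 441 of DESeq2's 587 and of voom's 501. edgeR itself called 285 higher (1.75%) and 126 lower (0.772%) once KO-Guanabenz 3 was left out, and 0 when either KO-Guanabenz 1 or KO-Guanabenz 2 was left out. The genes named below are therefore described by their values in each library, and none is called changed between the drugs.

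**Figure D1:**
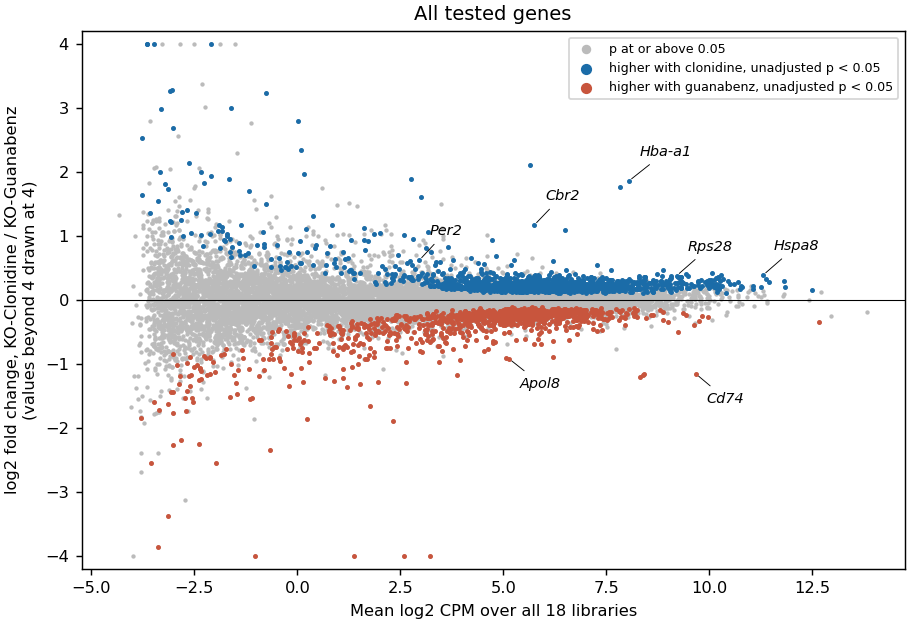
Log2 fold change of KO-Clonidine over KO-Guanabenz (vertical axis) against mean log2 CPM over all 18 libraries (horizontal axis) for the 16125 genes tested. Blue and red points are the 1447 genes higher and the 1034 lower with clonidine at an unadjusted p under 0.05; among well-expressed genes the blue points are mostly small differences, while Apol8, Cd74, Cbr2 and Hba-a1 lie further out.

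The genes with the smallest p-values were all higher with clonidine, and most encode small proteins of the ribosome, the spliceosome or the mitochondrial respiratory chain. Rps28 (chr17:33823036-33824562 on GRCm38), a protein of the small ribosomal subunit, was at 714, 717 and 648 CPM in KO-Clonidine and at 499, 550 and 550.2 CPM in KO-Guanabenz. The 2 groups did not overlap. The difference was 0.38 on the log2 scale (SE 0.06, adjusted p = 0.057 by edgeR, n = 3 and 3), a 1.3-fold higher level with clonidine. KO-Control lay between them at 627, 637 and 595 CPM. Rps28 was the gene called when KO-Clonidine 3 was left out (adjusted p = 0.04), and it was called with Ndufaf2 under a stricter filter on low counts (adjusted p = 0.041 for both).

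Ndufa12, an accessory subunit of respiratory complex I (chr10:94199035-94221440), was at 75.02, 80.5 and 76.4 CPM with clonidine and at 55.5, 58.3 and 63.7 CPM with guanabenz. Its 3 PBS values, 76.9 to 81.4 CPM, fell with the clonidine libraries and not with the guanabenz libraries. The drug difference was 0.39 (SE 0.06, adjusted p = 0.057). Ndufaf2, an assembly factor of the same complex, differed by 0.42, with an adjusted p of 0.057. Snrpd2 and Snrpf, core proteins of the spliceosomal small nuclear ribonucleoproteins, differed by 0.41 and 0.38, and Snrpd2 was at 122 to 130 CPM with clonidine against 91.1 to 103 CPM with guanabenz. Edf1, a ribosome-associated coactivator, Mtres1, a mitochondrial rescue factor, the ribosomal protein paralogue Rps27l and the RNA polymerase subunit Polr2f were also among the 10 smallest p-values, with differences of 0.35 to 0.48 and adjusted p-values of 0.057 or 0.061. For each of these genes the groups did not overlap.

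Ribosomal protein and oxidative phosphorylation genes were also counted as lists. Of the 25 ribosomal protein genes on the list used here, 25 were higher with clonidine, 24 at an unadjusted p under 0.05 and 24 without overlap, against 8.97% and 11.5% of all genes tested. The median difference was 0.26, and the summed level of the list was 27640 to 28070 CPM with clonidine, 22180 to 24300 CPM with guanabenz and 25720 to 27190 CPM with PBS. Ribosomal protein genes have many near-identical copies, and the counting step divides reads among such copies, so single members are less certain than the sum. Of 20 oxidative phosphorylation genes, 17 were higher with clonidine, 12 at an unadjusted p under 0.05, with a median of 0.19. Cox7c, a small subunit of cytochrome c oxidase, was at 132, 131 and 129 CPM with clonidine and at 100.2, 114 and 108 CPM with guanabenz (difference 0.28, SE 0.06, adjusted p = 0.061). Cox4i1, another subunit of that enzyme, differed by 0.27 (adjusted p = 0.071). DESeq2 called 19 of the ribosomal protein genes and 5 of the oxidative phosphorylation genes higher at an adjusted p under 0.05, against 3.2% of the genes it tested.

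Transcript length moved with the same difference. Genes were split by transcript length into 5 classes of equal size. Genes in the shortest class (up to 1114.5 bases) had a median difference of 0.08 between the drugs, and genes in the longest class (from 3822.5 bases) had -0.09. In the shortest class 21.6% of genes were higher with clonidine at an unadjusted p under 0.05, against 2.2% in the longest, and the shares lower with clonidine were 3.6% and 12.8%. The rank correlation of length with the difference was -0.28 across 15878 genes of the same 6 libraries, which is a description across genes and not over replicates. Relative to KO-Control, the median of the longest class was 0.115, 0.08 and 0.071 in KO-Guanabenz 1, 2 and 3, and 0.012, 0.005 and -0.014 in KO-Clonidine. All 3 guanabenz libraries thus lay above the 3 clonidine libraries. In WT hosts the same median was 0.024 to 0.089 with clonidine and 0.024 to 0.146 with guanabenz, so those groups overlapped. The WT drug difference had the same direction, with a median of 0.02 in the shortest class and -0.04 in the longest. Its rank correlation with length was -0.12. The ribosomal protein list has a median length of 816 bases and the oxidative phosphorylation list 710.5 bases. With each library's length trend removed, an alternative added after the data were seen, the medians were 0.20 for ribosomal proteins and 0.11 for oxidative phosphorylation. In that fit, 22 of 25 and 6 of 20 members had an unadjusted p under 0.05 in the clonidine direction, against 7.37% of genes higher and 5.53% lower. RNA quality values of the tumours were not analysed here.

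**Figure D2:**
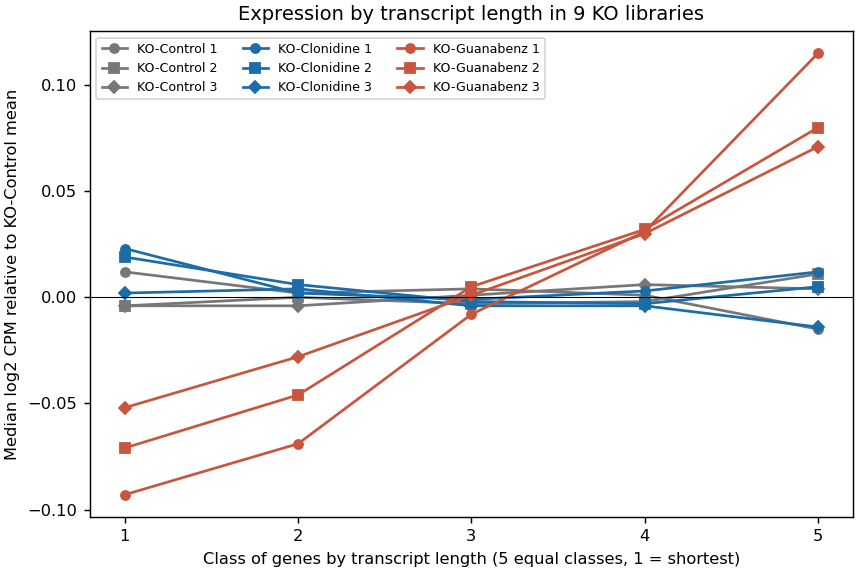
Median log2 CPM relative to the KO-Control mean (vertical axis) in each of 5 equal classes of genes by transcript length, from shortest to longest (horizontal axis), with 1 line for each of the 9 Adra2a-/- libraries. The 3 KO-Guanabenz lines climb from between -0.093 and -0.052 in the shortest class to between 0.071 and 0.115 in the longest, while the KO-Clonidine and KO-Control lines stay close to 0.

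Genes that were higher with guanabenz had varied roles. Cdon, a cell-surface co-receptor for hedgehog ligands (chr9:35421528-35507652), was at 48.8, 51.9 and 33.0 CPM in KO-Guanabenz and at 27.3, 17.9 and 26.0 CPM in KO-Clonidine. KO-Control was at 24.1 to 29.5 CPM, below all 3 guanabenz libraries, and KO-Guanabenz 3 was the lowest of its group. The difference was -0.91 (SE 0.19, adjusted p = 0.063), a 1.88-fold higher level with guanabenz. Setbp1, which encodes a SET-binding nuclear protein, was at 9.01, 7.59 and 7.99 CPM with guanabenz, 4.82, 2.81 and 5.02 CPM with clonidine and 4.44 to 5.88 CPM with PBS. Its difference was -0.96 (SE 0.19, adjusted p = 0.061), with KO-Guanabenz above both other groups in all 3 libraries. Tlr8, an endosomal sensor of RNA in myeloid cells, was at 25.6, 24.5 and 24.7 CPM with guanabenz and at 17.1 to 20.5 CPM with clonidine (difference -0.42, adjusted p = 0.063). Slc29a3, a lysosomal nucleoside transporter, Elf1, an ETS transcription factor, and Niban1, a stress-induced protein, were also higher in all 3 guanabenz libraries, by 0.44, 0.27 and 0.36 on the log2 scale. Serpina3g, a serine protease inhibitor from a cluster of near-identical genes, was at 3.79, 3.69 and 3.62 CPM with guanabenz and at 1.93, 1.84 and 1.78 CPM with clonidine. Its groups were the tightest of these, and its difference was -1 (SE 0.22, adjusted p = 0.071).

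Apol8 and Rab11fip1 were ordered in another way, with both drugs below PBS and clonidine the lower of the drugs. Apol8, an apolipoprotein L family member (chr15:77745109-77757062), was at 20.7, 25.6 and 14.6 CPM with clonidine, 40.0, 36.6 and 38.4 CPM with guanabenz and 59.8, 50.6 and 56.7 CPM with PBS. None of the 3 groups overlapped another. The difference between the drugs was -0.92 (SE 0.19, 95% interval -1.32 to -0.51, adjusted p = 0.063). Rab11fip1, an effector of the Rab11 recycling endosome (chr8:27138773-27174646), was at 15.1, 14.8 and 13.8 CPM with clonidine, 24.5, 24.5 and 18.1 CPM with guanabenz and 32.3, 26.3 and 27.2 CPM with PBS. Its groups did not overlap either, and the difference between the drugs was -0.62 (SE 0.14, adjusted p = 0.071).

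Each drug was also set against KO-Control, which both of these comparisons share. At an unadjusted p under 0.05 by edgeR, 890 genes differed from KO-Control with clonidine and 2437 with guanabenz. About 806 would arise by chance in each comparison. With clonidine 3 genes (0.0186%) passed an adjusted p of 0.05, all lower: Apol8 (-1.46), Rab11fip1 (-0.97) and Esp8 (-2.97), each with an adjusted p of 0.015. The corresponding differences for guanabenz were -0.54, -0.35 and -2.19, and none of these passed. Esp8, which encodes an exocrine gland secreted peptide (chr17:40520022-40530702), was at 0.584, 0.301 and 0.212 CPM with clonidine, 0.747, 0.632 and 0.421 CPM with guanabenz and 2.58, 3.40 and 2.23 CPM with PBS. For Esp8 the drugs overlapped (difference -0.77, SE 0.42, adjusted p = 0.40) and both lay below every PBS library. With guanabenz 2 genes (0.0124%) passed, both lower than PBS: Ndufa12 (-0.42) and Hddc2 (-0.73), at an adjusted p of 0.034. Hddc2 was named after its values were seen.

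**Figure D3:**
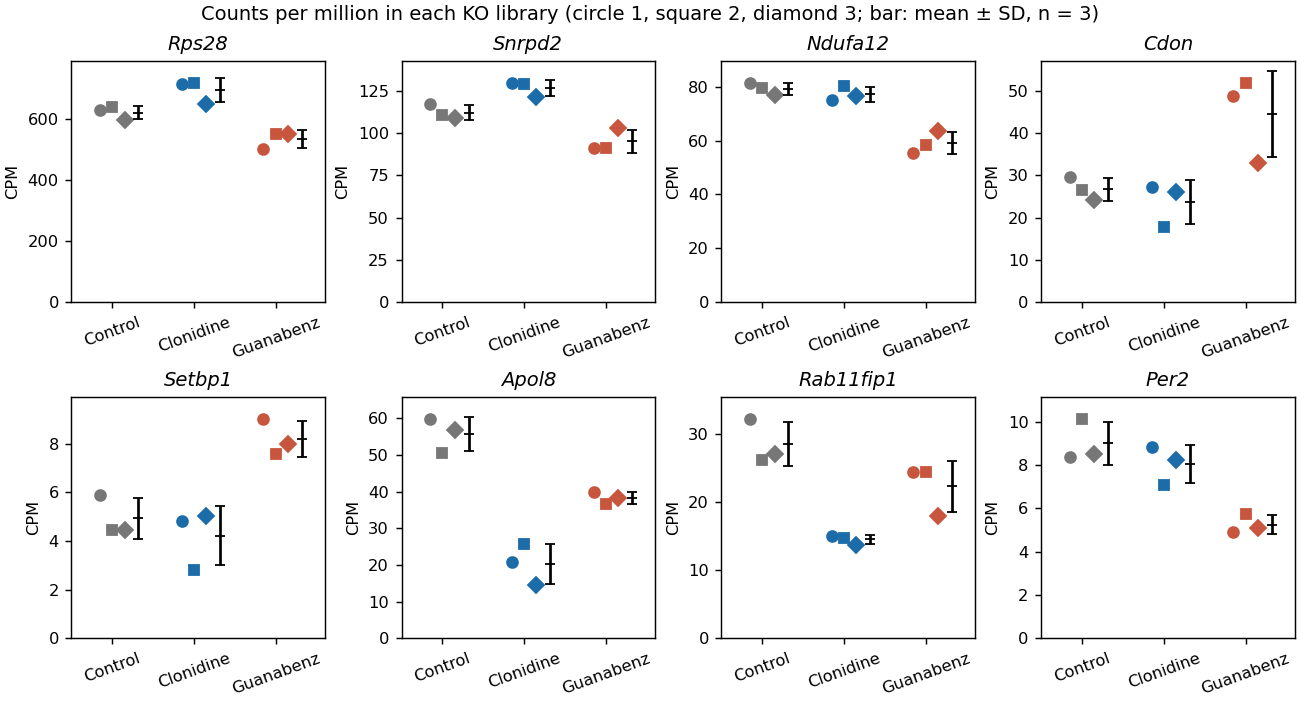
CPM in each of the 9 Adra2a-/- libraries for 8 genes, by treatment (horizontal axis), with the mean ± SD of 3 libraries beside the points. For Rps28, Snrpd2 and Ndufa12 guanabenz is lowest, for Cdon and Setbp1 it is highest, Apol8 and Rab11fip1 step down from PBS to guanabenz to clonidine, and Per2 is lowest with guanabenz.

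MHC class II genes were the immune group with the largest difference. MHC class II molecules present antigen to CD4+ T cells on dendritic cells, B cells and activated macrophages, and Ciita is the transactivator that switches their genes on, largely in response to interferon gamma. H2-Ab1, the β chain of I-A (chr17:34263227-34269418), was at 174, 261 and 238 CPM with clonidine, 428, 753 and 341 CPM with guanabenz and 330, 222 and 223 CPM with PBS. The drug groups did not overlap, KO-Guanabenz 2 was highest and KO-Guanabenz 3 nearest to the others. The difference was -1.18 (SE 0.37, adjusted p = 0.15). The invariant chain Cd74 was at 411, 681 and 601 CPM with clonidine and at 1098, 1842 and 829 CPM with guanabenz (difference -1.15, SE 0.38, adjusted p = 0.17). Ciita was at 5.74, 14.2 and 6.90 CPM with clonidine and at 18.0, 26.1 and 16.4 CPM with guanabenz (difference -1.16, SE 0.38, adjusted p = 0.17). All of these were edgeR values that missed the threshold, and the guanabenz group itself was widely spread.

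Of the 10 MHC class II genes on the list, all were lower with clonidine, 8 at an unadjusted p under 0.05 (6.41% of all genes) and 6 without overlap (8.64% of all genes). The median was -0.92, and it was -0.61 without KO-Guanabenz 2. The summed level was 1957 to 2559 CPM with clonidine, 2936 to 5614 CPM with guanabenz and 2242 to 2767 CPM with PBS. Among the H2-DM and H2-O genes, H2-DMb1 differed by -0.69 without overlap, whereas H2-DMa (-0.30), H2-Oa (-0.34) and H2-Ob (-0.51) overlapped. In bulk tissue fewer cells of a type and less RNA per cell cannot be told apart. The median was -1 in the fit with a Y-linked term and -0.92 with the length trend removed.

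**Figure D4:**
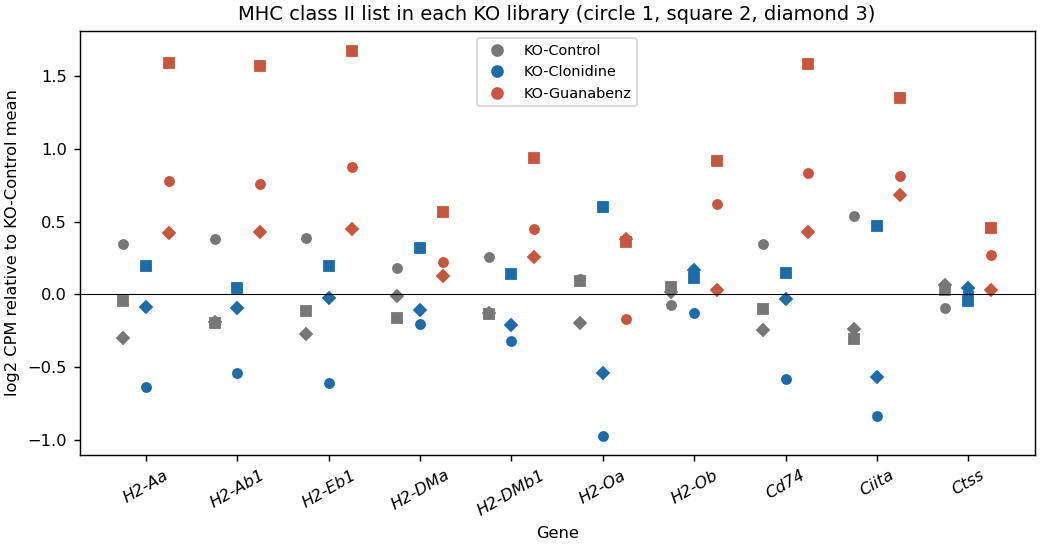
Log2 CPM of the 10 MHC class II list genes relative to the KO-Control mean (vertical axis) in each Adra2a-/- library, by gene (horizontal axis). For H2-Aa, H2-Ab1, H2-Eb1, H2-DMb1, Cd74 and Ciita all 3 guanabenz points lie above all 3 clonidine points, with KO-Guanabenz 2 (square) highest.

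Promoters of list members are shown because MHC class II genes are known to be controlled through the S-X-Y module, the promoter element to which Ciita is recruited. Windows of 300 bases from RefSeq (GRCm38.p6) were matched for 7 of the 10 members. The Y box CTGATTGG was found, on either strand, in 3 of the 7 and in 4.1% of all 32851 promoter windows. Its core GATTGG, which lies inside that motif, was found in 6 of the 7 and in 16.1% of all windows, and AGCAAC, a core of the X box, in 3 of the 7 and in 14.8%. The stretches below run 5′ to 3′ on the gene's own strand, with the GATTGG and AGCAAC matches in capitals.
H2-Aa (chr17:34287847-34287934, minus strand): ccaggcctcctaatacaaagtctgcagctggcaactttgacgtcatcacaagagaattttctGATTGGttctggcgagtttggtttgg
H2-Eb1 (chr17:34305745-34305832, plus strand): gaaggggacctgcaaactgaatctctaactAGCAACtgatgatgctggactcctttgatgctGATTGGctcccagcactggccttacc
H2-DMb1 (chr17:34153067-34153154, plus strand): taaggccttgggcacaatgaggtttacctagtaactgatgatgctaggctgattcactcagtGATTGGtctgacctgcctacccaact
H2-Oa (chr17:34092273-34092360, plus strand): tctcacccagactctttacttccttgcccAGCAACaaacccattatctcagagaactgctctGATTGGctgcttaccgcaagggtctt
H2-Ob (chr17:34238785-34238872, plus strand): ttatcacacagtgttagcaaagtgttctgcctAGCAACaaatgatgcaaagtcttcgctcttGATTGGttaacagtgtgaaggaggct
The Y box core lies 44 to 62 bases before the annotated start in these 5 windows. In H2-DMa the Y box core was 199 bases before the annotated start in 1 of its 2 windows, and Ctss held none of the motifs. Both cores were found in H2-Eb1, whose drug groups did not overlap, and in H2-Oa and H2-Ob, whose groups did. H2-Aa and H2-DMb1, whose groups did not overlap, had the Y box core and no exact AGCAAC match. Only exact matches were searched, so an X box that differs from AGCAAC would be missed. The H2-Aa stretch holds ggcaac and the H2-DMb1 stretch agtaac, each 1 base away from AGCAAC. A match is a description of the sequence only.

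T cell and interferon gamma genes lay on the same side as MHC class II, with smaller differences. All 19 T cell genes tested were lower with clonidine (median -0.42), but only 2 had an unadjusted p under 0.05 (6.41% of all genes) and 3 did not overlap (8.64% of all genes). Cd8a, the coreceptor of cytotoxic T cells, was at 4.37, 6.82 and 7.91 CPM with clonidine and at 12.4, 14.0 and 6.99 CPM with guanabenz, so that KO-Guanabenz 3 lay inside the clonidine range (difference -0.80, SE 0.36, adjusted p = 0.30). The checkpoint receptor Pdcd1 differed by -0.55 (adjusted p = 0.23) and Lag3 by -0.37 (adjusted p = 0.28). Among 17 cytotoxic and NK cell genes 15 were lower with clonidine, with a median of -0.45 that was -0.16 without KO-Guanabenz 2. Ifng, the interferon gamma gene, was at 0.317, 0.412 and 0.283 CPM with clonidine and at 0.524, 1.21 and 0.433 CPM with guanabenz (difference -1.09, SE 0.47, adjusted p = 0.27). The NK receptor gene Klrb1b, named after its values were seen, was at 2.97, 4.04 and 4.44 CPM with clonidine and 9.06, 13.1 and 6.26 CPM with guanabenz (difference -1.31, adjusted p = 0.14).

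Of 21 interferon gamma response genes, 18 were lower with clonidine, 8 at an unadjusted p under 0.05 (6.41% of all genes) and 10 without overlap (8.64%), with a median of -0.27. Iigp1, an interferon-inducible GTPase, was at 71.6, 75.1 and 67.6 CPM with clonidine, 83.3, 119 and 94.7 CPM with guanabenz and 67.4 to 80.6 CPM with PBS. Its difference was -0.47 (SE 0.14, adjusted p = 0.12). The related GTPases Irgm2 and Gbp9 differed by -0.34 and -0.38, also without overlap (adjusted p = 0.16 and 0.18). Type I interferon genes showed no such shift: 11 of 21 were higher with clonidine, 0 in either direction had an unadjusted p under 0.05, and the median was 0. The 13 MHC class I genes had a median of -0.05 and likewise 0 members past that p.

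Macrophage genes were counted in 2 lists. The 18 general macrophage and monocyte genes had a median of -0.01, and the complement gene C1qa was at 883 to 944 CPM with clonidine and 861 to 966 CPM with guanabenz. Genes of alternatively activated macrophages stood apart from that list: 11 of 13 were higher with clonidine, 6 at an unadjusted p under 0.05 (8.97% of all genes), with a median of 0.53. Folr2, a folate receptor of resident macrophages, was at 30.7, 37.4 and 30.1 CPM with clonidine and at 15.9, 8.30 and 26.9 CPM with guanabenz (difference 0.94, SE 0.32, adjusted p = 0.17). Cbr2, a carbonyl reductase of the same cells, was at 58.8, 112 and 50.27 CPM with clonidine and at 30.7, 17.3 and 50.24 CPM with guanabenz, which leaves KO-Guanabenz 3 level with the lowest clonidine library (difference 1.17, SE 0.37, adjusted p = 0.15). For both genes the low values were those of KO-Guanabenz 1 and 2, the libraries with Y-linked transcripts, and the fit with a Y-linked term gave a list median of 0.33. Without KO-Guanabenz 3 the list median was 1.24, and 4 of its members were called higher, against 1.75% of all genes in that fit. The 11 dendritic cell genes were flat, with 5 higher and 6 lower, a median of -0.01 and 1 lower at an unadjusted p under 0.05 (6.41% of all genes). That gene was Itgax, which encodes the integrin CD11c and was lower with clonidine at 17.4, 14.5 and 22.7 CPM against 28.3, 35.8 and 28.7 CPM (difference -0.76, SE 0.28, adjusted p = 0.20), with PBS at 25.1 to 33.1 CPM beside guanabenz.

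**Figure D5:**
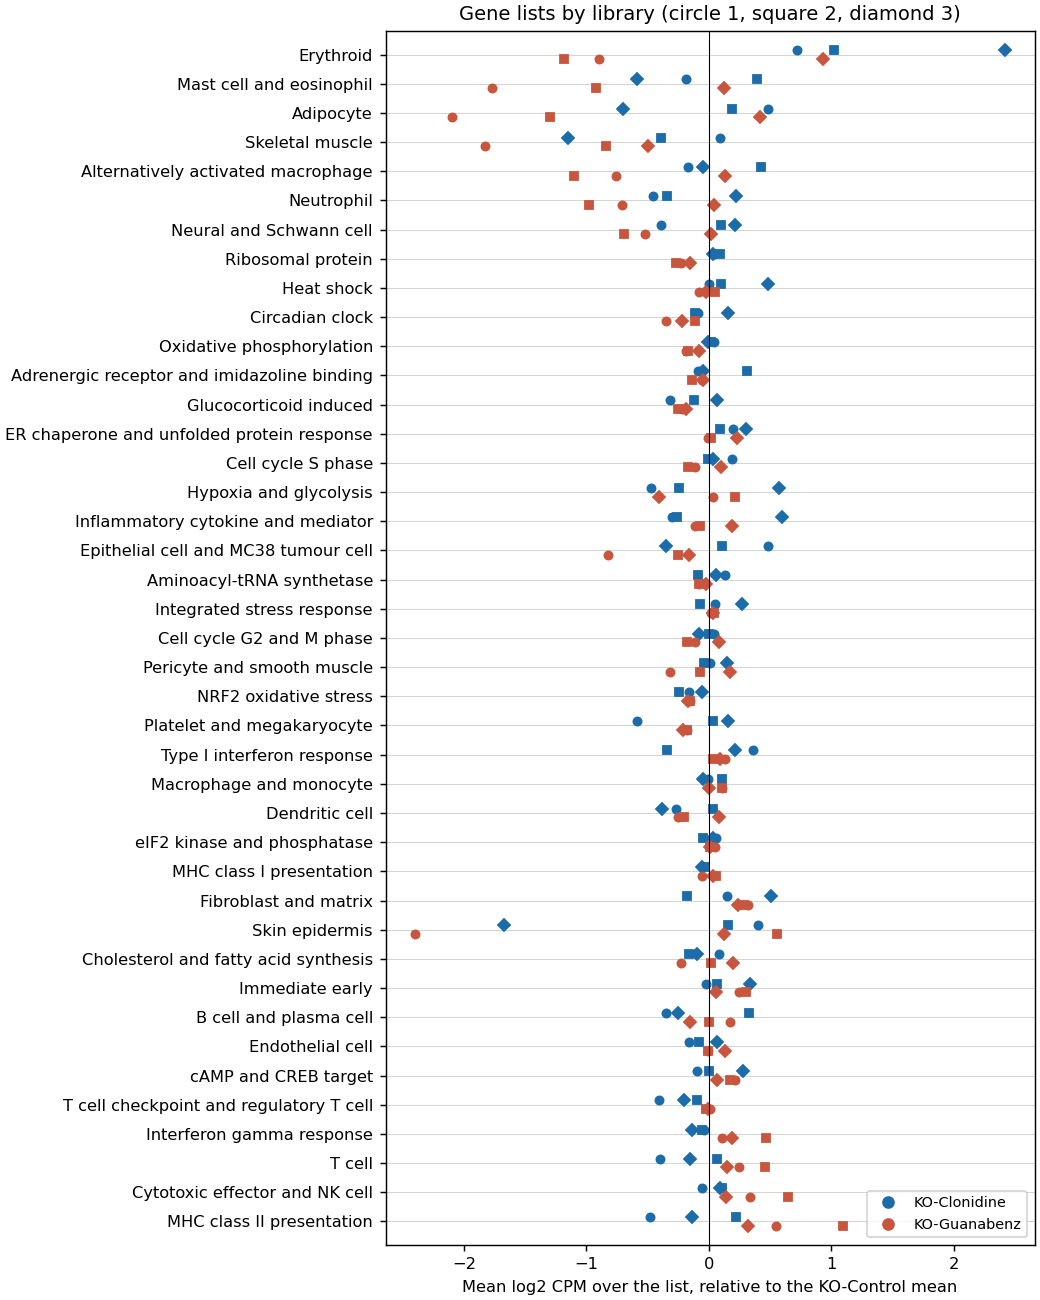
Mean log2 CPM of each gene list relative to the KO-Control mean (horizontal axis) in the 3 KO-Clonidine and 3 KO-Guanabenz libraries, with lists ordered by their median drug difference (vertical axis). The ribosomal protein list separates the drugs with little spread, whereas in the erythroid, adipocyte and mast cell lists KO-Guanabenz 1 and 2 are the lowest of the 6 libraries and KO-Guanabenz 3 lies within the clonidine range.

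Genes of tissues around or passing through the tumour differed strongly between single libraries. Erythroid genes had a median of 1.87 over 8 genes, all higher with clonidine and 5 at an unadjusted p under 0.05 (8.97% of all genes). Hba-a1, an α-globin gene that shares reads with a near-identical copy, was at 450, 320 and 1283 CPM with clonidine, 103, 64.4 and 399 CPM with guanabenz and 122 to 322 CPM with PBS. KO-Clonidine 3 was far above the rest and KO-Guanabenz 3 lay inside the clonidine range. Without KO-Clonidine 3 the erythroid median was 1, and without KO-Guanabenz 3 it was 3.05. Adipocyte genes (11 of 11 higher with clonidine, median 0.61) and mast cell and eosinophil genes (10 of 13, median 0.62) had 0 members at an unadjusted p under 0.05. Mcpt4, a mast cell protease, was at 3.29, 4.38 and 1.47 CPM with clonidine and at 0.393, 0.935 and 3.11 CPM with guanabenz. Skeletal muscle genes were higher with clonidine in 14 of 15 cases (median 0.59), with a summed level of 129 to 307 CPM against 80.5 to 204 CPM with guanabenz and 230 to 316 CPM with PBS. Skin keratin genes were low in KO-Clonidine 3 and KO-Guanabenz 1 alike, with Krt14 at 10.6 and 4.03 CPM against 38.1 to 64.6 CPM in the other 4 drug-treated libraries. The part of included tissue and blood in the immune differences above was not tested.

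Stromal genes showed a few differences within lists of small median difference. Fbn1 and Fn1, which encode the matrix proteins fibrillin-1 and fibronectin, were higher with guanabenz by 0.50 and 0.35 on the log2 scale, without overlap (adjusted p = 0.13 and 0.21). The fibroblast list as a whole had a median of -0.05. Of its 19 genes, 4 were lower with clonidine at an unadjusted p under 0.05 (6.41% of all genes) and 0 were higher. Pdgfra (-0.39) and Loxl1 (-0.49) were among the 4 and overlapped, while Col1a1 and Col1a2 differed by 0.10 and 0.07. Fn1 was at 6631, 4957 and 6670 CPM with clonidine and at 8148, 8373 and 6674 CPM with guanabenz, so KO-Guanabenz 3 was barely above the highest clonidine library. The pericyte genes Abcc9 and Notch3 were higher with guanabenz by 0.41 and 0.34, whereas Cspg4, the NG2 proteoglycan, was higher with clonidine by 0.69. The endothelial list had a median of -0.10, with 1 of 15 genes lower with clonidine at an unadjusted p under 0.05 (6.41% of all genes).

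As no gene passed the test, genes close to the drugs' known targets are described by their values. Adra2a differed by 0.83 (SE 0.36, adjusted p = 0.28) at the low levels given above, and Adra2b by 0.04 (SE 0.36). Nisch, the imidazoline-binding protein nischarin, was at 256, 268 and 271 CPM with clonidine and at 291, 286 and 261 CPM with guanabenz (difference -0.08, SE 0.06, adjusted p = 0.60). Ppp1r15a, the stress-induced phosphatase subunit GADD34, was at 29.1, 26.5 and 36.7 CPM with clonidine and at 30.1, 30.8 and 22.0 CPM with guanabenz (difference 0.16, SE 0.19, 95% interval -0.25 to 0.57, adjusted p = 0.76). Its constitutive relative Ppp1r15b differed by -0.05. Downstream of eIF2α phosphorylation, the transcription factors Atf4 (0.15) and Ddit3 (0.19) and their targets Trib3 (0.16), Chac1 (0.18) and Asns (0.14) were each slightly higher with clonidine, with unadjusted p-values from 0.076 to 0.38. Atf4 did not overlap (253.2 to 283.9 CPM with clonidine, 230.5 to 249.9 CPM with guanabenz), as held for 11.5% of all genes. Ddit3, Trib3, Chac1 and Asns overlapped. The 27 integrated stress response genes had a median of 0.06, with 2 higher (8.97% of all genes) and 1 lower (6.41% of all genes) at an unadjusted p under 0.05. Neither count exceeded the share over all genes. These values bear on mRNA levels and not on protein phosphorylation or translation.

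Chaperone genes were modestly higher with clonidine. Hspa8, the constitutive cytosolic Hsp70, was at 2736, 2863 and 2787 CPM with clonidine and at 1939, 1908 and 2561 CPM with guanabenz, with PBS at 2141 to 2505 CPM. The groups did not overlap, and the difference was 0.39 (SE 0.10, adjusted p = 0.088). All 10 heat shock genes were higher with clonidine, 5 at an unadjusted p under 0.05 (8.97% of all genes), with a median of 0.25. Of 19 chaperone and unfolded protein response genes of the endoplasmic reticulum, 15 were higher, 6 of them past that p, with a median of 0.13. Hspa5, the chaperone BiP, was at 1521, 1502 and 1634 CPM with clonidine and at 1143, 1219 and 1572 CPM with guanabenz, so KO-Guanabenz 3 again lay inside the clonidine range (difference 0.24, adjusted p = 0.25).

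Several clock genes, Per2 among them, were lower with guanabenz, and none passed the test. Per2, a repressor of the clock (chr1:91415977-91459351), was at 8.84, 7.09 and 8.24 CPM with clonidine, 4.89, 5.74 and 5.09 CPM with guanabenz and 8.38, 10.1 and 8.49 CPM with PBS. The guanabenz libraries lay below all 6 others, and the drug difference was 0.62 (SE 0.17, adjusted p = 0.094). Dbp and Tef, both PAR-bZIP output factors, differed by 0.83 and 0.38 without overlap (adjusted p = 0.17 and 0.16), and Ciart by 0.48 with overlap. Of 17 clock genes 13 were higher with clonidine and 4 lower; 4 were higher at an unadjusted p under 0.05 (8.97% of all genes), and the median was 0.23. The hour at which tumours were taken is not given in the labels, so it cannot be told apart from the treatment here. Ddit4, an mTORC1 inhibitor induced by stress and glucocorticoids, was at 157, 208 and 234 CPM with clonidine and at 131, 144 and 135 CPM with guanabenz (difference 0.55, SE 0.14, adjusted p = 0.088).

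Proliferation, hypoxia and metabolic lists differed little. S phase genes were higher with clonidine in 17 of 18 cases but by a median of 0.13, with thymidylate synthase Tyms the clearest at 0.33 (adjusted p = 0.14), and G2 and M phase genes had a median of 0.04. Hypoxia and glycolysis genes (median 0.11 over 22), cholesterol and fatty acid synthesis genes (-0.07 over 21), immediate early genes (-0.07 over 17) and cyclic AMP targets (-0.13 over 14) had 0 members at an unadjusted p under 0.05.

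The same drug pair was measured in WT hosts, and the difference between the drug differences was tested directly. No gene passed an adjusted p of 0.05 in this interaction (0% of 16125, smallest adjusted p 0.41), while 745 genes (4.62%) had a more positive clonidine-minus-guanabenz difference in Adra2a-/- than in WT hosts at an unadjusted p under 0.05 and 541 (3.36%) a more negative one. DESeq2 called 41 genes and voom 0. Rps28 had the smallest p: its WT values were 523 to 530.3 CPM with clonidine and 548 to 560.2 CPM with guanabenz, a difference of -0.08, and the interaction was 0.45 (SE 0.08, unadjusted p = 2.8e-05, adjusted p = 0.41). For ribosomal proteins the WT median was 0. At an interaction p under 0.05, 21 of 25 members were more positive in Adra2a-/- hosts, against 4.62% of all genes. T cell genes were on opposite sides, with all 19 higher with clonidine in WT hosts (median 0.60) and lower in Adra2a-/- hosts, and 13 of the 19 had an interaction p under 0.05, against 3.36% of all genes. In WT hosts WT-Guanabenz 1 was lowest for Cd8a (11.7, 10.2 and 8.76 CPM with clonidine, 3.93, 10.1 and 7.87 CPM with guanabenz). It was also lowest for Cd3e (6.63, 6.05 and 4.53 CPM with clonidine, 2.02, 4.37 and 3.57 CPM with guanabenz). The drug groups overlapped for Cd8a and not for Cd3e. How far the WT side rests on WT-Guanabenz 1 was not tested. Ddit4 (WT difference -0.44, interaction 0.98, unadjusted p = 0.00016) and Per2 (WT difference -0.38, interaction 1, unadjusted p = 0.00053) were also on opposite sides in the 2 hosts. MHC class II genes had a WT median of 0.04. At an interaction p under 0.05, 5 of 10 were more negative in Adra2a-/- hosts, against 3.36% of all genes. For Hspa8 the WT difference was 0.31, close to that in Adra2a-/- hosts, and the interaction was 0.08 (SE 0.14).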

How the data were processed

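Bulk tumour RNA was sequenced. Per the submitters' processing notes, reads were handled with Trim Galore 0.6.5 and kallisto 0.46.0 on GRCm38; no source used here states strandedness. The deposited table holds the authors' estimated counts per gene (21015 genes, whole numbers) and was used as deposited. It spans 54683838 to 491137160 counts a library. Gene IDs were named from RefSeq (21 unmatched, at most 0.022% of counts).

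Counts were tested with edgeR 4.0.16 (R 4.3.3): default filter on low counts, TMM scaling, quasi-likelihood test, 6 group means over all 18 libraries, 12 residual degrees of freedom, Benjamini-Hochberg adjustment over 16125 genes. CPM are TMM-scaled. DESeq2 1.42.0 and limma 3.58.1 (voom) were alternatives. The code was tested on simulated data. Transcript lengths came from GENCODE, as the median over a gene's transcripts. Gene lists (42 lists, described by counts and medians, with no list test) and the libraries compared were chosen with earlier results of these data known. Named genes are the 10 with the smallest p in each direction and the 8 with the smallest interaction p. Drug targets were also named, as were up to 4 members with the smallest p and the defining markers of each list. Per2, Apol8, Rab11fip1 and Esp8 were named with the drug targets without being targets of either drug. Their choice may rest on earlier results of these data. Akp3, Prss56, Cbr2, Klrb1b and Hddc2 were named after their values were seen. Some genes that meet this rule are not reported here.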

Additional observations from a re-analysis of the deposited data

How the results depend on the processing

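No gene was called in either direction in the reported fit. Genes higher with clonidine numbered 412 by DESeq2, 388 by limma voom, 2 under a stricter filter (CPM of at least 1 in at least 3 of the 6 libraries) and 264 at an adjusted p under 0.10. Genes lower numbered 175 by DESeq2, 113 by voom and 67 at an adjusted p under 0.10. Leaving out 1 of the 6 libraries at a time gave 0 to 285 genes higher and 0 to 126 lower, with 285 and 126 reached without KO-Guanabenz 3. Other scaling (RLE), no filter, the compared groups alone, a term for Y-linked transcripts, removal of the length trend and reading KO-Guanabenz as untreated gave 0 calls in both directions. The last of these pools KO-Guanabenz with KO-Control against KO-Clonidine, a different question, and left 1231 genes at an unadjusted p under 0.05. The edgeR fit with the Y-linked term left 1906 genes at that p, against 2481 in the reported fit. Its smallest adjusted p was 0.12, against 0.057. The genes whose drug difference differed between hosts numbered 41 by DESeq2 (24 higher and 17 lower) and 0 in every other setting run. The cause of the difference between tools was not tested. With a replicate block the call counts were 0; same-numbered drug libraries did not deviate together (correlations -0.21, 0.15 and -0.28), so the numbers do not pair them. Among named genes Adra2b, near 0 in the reported fit, turned to -0.09 with voom, -0.03 with KO-Guanabenz as untreated, and -0.14, -0.02, -0.04 and -0.21 without KO-Clonidine 2, KO-Clonidine 3, KO-Guanabenz 1 and KO-Guanabenz 3 (0.45 without KO-Guanabenz 2). Ppp1r15b turned to 0.04 with the length trend removed. With 3 libraries a group, differences smaller than the spread between libraries could not be called.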

Other observations

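A pair of genes was high only in KO-Guanabenz 1 and 2 among the Adra2a-/- libraries, and both were named after their values were seen. Akp3, an intestinal-type alkaline phosphatase, was at 4.06 and 4.17 CPM in those libraries, 0.0114 CPM in KO-Guanabenz 3 and at most 0.0257 CPM in KO-Clonidine and KO-Control. Prss56, a serine protease, was at 1.17 and 1.099 CPM against 0.125 CPM in KO-Guanabenz 3 and at most 0.182 CPM in KO-Clonidine and KO-Control. Y-linked transcripts were at 13.8 and 15.8 CPM in the same pair and at 12.8 and 9.04 CPM in KO-Control 1 and 2. In WT hosts Akp3 was at 0.639 CPM in WT-Control 1, 0.514 CPM in WT-Clonidine 1 and at most 0.0368 CPM in the other libraries. A link of Akp3 or Prss56 to Y-linked transcripts was not tested.

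Lce3c, a late cornified envelope gene of the skin whose family members are near-identical, was at 0.167, 0.285 and 0.0566 CPM with clonidine and at 0.0131, 0.0126 and 0.0228 CPM with guanabenz. It did not overlap and had an interaction p of 0.00027 (adjusted p = 0.41), at levels of a few reads per library with guanabenz. Pax5, the B cell transcription factor, was at 0.262 and 0.227 CPM in KO-Guanabenz 1 and 2 and at 0.0333 to 0.0778 CPM in the other 4 drug-treated libraries, while the B cell marker Ms4a1 was at 0.25 to 0.467 CPM in all 6.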
